A study of Mus musculus with 9 samples.

Results

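The Ms4a4 and Ms4a6 genes described here are Ms4a4b, Ms4a4c, Ms4a4d, Ms4a6b, Ms4a6c and Ms4a6d. They were chosen by gene symbol, as each probe set of the array whose annotation names one of these 6 genes, out of 22180 genes with a value. Each gene had 1 probe set (6 in all), which named that gene alone, and 0 probe sets named a member together with another gene. The set was proposed with the comparison of genotypes already known, so the difference between genotypes is given for the members as a description.

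The samples were regulatory T (Treg) cells of C57BL/6 mice, 5 wild-type and 4 without the Hippo pathway kinases Mst1 and Mst2, with 1 whole-transcript array each. Both groups came from donors with Cre and YFP at Foxp3, the gene that marks Treg cells (Foxp3YFP-Cre), and the null donors (Foxp3YFP-CreStk4f/fStk3f/f) also had both kinase genes, Stk4 (Mst1) and Stk3 (Mst2), flanked by loxP sites. Cre in both groups is thus driven by Foxp3, so that deletion is directed to Treg cells. Donor marrow was mixed in equal parts with wild-type CD45.1 marrow and given to RAG1-/- recipients. Such recipients make no mature T or B cells of their own. CD4+YFP+ donor cells without CD45.1 were sorted 2 months later. The labels give no age for the mice, nor whether each sample is a chimera of its own. The p-values therefore speak only of the spread among these 9 arrays, which may be technical.

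MS4A genes encode small proteins that cross the membrane several times and have both ends inside the cell. The best known are Ms4a1, which encodes CD20 of B cells, and Ms4a2, the beta chain of the IgE receptor of mast cells. The Ms4a4 and Ms4a6 genes lie among them in 1 run of Ms4a genes on mouse chromosome 19. Ms4a4b is made in T cells and its protein associates with the costimulatory receptor GITR on Treg cells, while Ms4a4c is known as a gene induced by interferon.

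Values are log2 RMA values, a log2 scale on which background was corrected, arrays were normalised by quantiles and the probes of a probe set were summarised. Levels are compared only within a gene, since probe sets differ in brightness. The median of all probe set values was 4.04, and a value near or below it is not shown to exceed background. For Foxp3 the wild-type mean was 10.70 ± 0.049 (SD, n = 5) and the null mean 10.71 ± 0.092 (SD, n = 4). Each of the 6 Treg cell defining markers had a mean above that median, and 1 of them fell, Ikzf2 (difference -0.72, limma adjusted p = 0.0330). Their mean level was 9.98 to 10.06 in wild type and 9.70 to 9.86 in null samples. For Stk4 the means were 7.91 ± 0.10 (SD, n = 5) and 7.64 ± 0.15 (SD, n = 4), without overlap (limma adjusted p = 0.146). Which exons are removed was not known here, so this probe set does not check the deletion. The mean correlation of an array with the others of its group was 0.9928 to 0.9936 in wild type and 0.9866 to 0.9888 in null samples. Across 22180 genes, 515 passed a limma test of null against wild type at an adjusted p under 0.05, with 95 higher and 420 lower, and 3296 (14.9%) had an unadjusted p under 0.05. The share of higher genes among the calls was 18.4%, and 35.7% after quantile normalisation of the gene values.

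Of the members, 1 of 6 passed this test, Ms4a4c, which was higher in null samples. Over all genes the share called was 2.32%, with 0.428% called higher and 1.89% called lower. The groups did not overlap for the same 1 member, against 6.16% of all genes (1.76% with null samples higher). The median difference of the members was 0.13, and over all genes it was 0.002. As the members were chosen with this contrast known, these counts describe the set and test nothing.

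The start regions of Ms4a4c and Ms4a4b are shown because the genes are close copies there, with differences between genotypes that are given next. Promoter windows, from 250 bases before to 50 after the start, were given for 5 of the 6 members in the RefSeq table of build GRCm38.p6, all on the plus strand. Ms4a4c is shown at chr19:11407411-11407710 and Ms4a4b at chr19:11443308-11443607. Capitals mark the bases that differ, or have no partner, within the aligned stretch of the pair.

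Ms4a4c: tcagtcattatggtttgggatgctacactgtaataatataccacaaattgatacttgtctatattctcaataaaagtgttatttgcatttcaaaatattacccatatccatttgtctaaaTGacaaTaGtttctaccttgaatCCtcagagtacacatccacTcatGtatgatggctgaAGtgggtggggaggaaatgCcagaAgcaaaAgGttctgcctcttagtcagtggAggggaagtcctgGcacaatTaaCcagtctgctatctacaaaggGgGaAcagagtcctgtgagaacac

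Ms4a4b: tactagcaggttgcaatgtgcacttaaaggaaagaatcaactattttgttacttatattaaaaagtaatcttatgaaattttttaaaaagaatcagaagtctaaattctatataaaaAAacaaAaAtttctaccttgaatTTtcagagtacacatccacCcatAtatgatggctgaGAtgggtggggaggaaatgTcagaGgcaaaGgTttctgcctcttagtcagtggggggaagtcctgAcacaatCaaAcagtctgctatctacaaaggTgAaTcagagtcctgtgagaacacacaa

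The aligned stretch of this pair ran from position -133 to 50 of Ms4a4c and from -136 to 46 of Ms4a4b, counted from the start. Of 183 aligned columns 162 (88.5%) were identical, 20 were mismatched and 1 was a gap. Upstream of this stretch the windows did not align further.

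Ms4a4c was 6.38, 5.68, 6.38, 5.96 and 6.12 in wild-type samples 1 to 5 and 7.53, 6.75, 6.91 and 7.01 in null samples 1 to 4. Each null value lay above each wild-type value, with null 1 the highest and wild type 2 the lowest, and all 9 values lay above the median of all probe sets. The group means were 6.11 ± 0.30 (SD, n = 5) and 7.05 ± 0.34 (SD, n = 4), a difference of 0.94 ± 0.18 (SE, 95% interval 0.54 to 1.35) or 1.92-fold. Over the 18 alternative analyses the difference ran from 0.78 without null 1 to 1.12 without null 2 and null 4 together. Leaving out arrays could not change its sign, as the groups do not overlap. The limma call was kept in 12 of the 18. The call was lost when every probe set was tested by itself and without wild type 2, wild type 4, wild type 5, null 1 or null 3, each left out alone.

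Ms4a4b was 8.51, 8.35, 8.22, 8.32 and 8.16 in wild type and 8.76, 8.52, 8.44 and 8.13 in null samples. The groups overlapped: null 1 and null 2 lay above the highest wild-type value and null 4 below the lowest. The difference was 0.15 ± 0.12 (SE), with a 95% interval from -0.11 to 0.42.

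Ms4a4d was 4.83, 4.76, 4.74, 4.76 and 4.89 in wild type and 4.41, 4.88, 4.60 and 4.76 in null samples. Its difference of -0.14 ± 0.092 (SE) was the 1 negative value among the members. Null 1 and null 3 were lower than all wild-type samples, and the other two null samples fell within the wild-type range.

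Ms4a6b and Ms4a6c form a second pair of copies, shown at chr19:11518309-11518608 and chr19:11469118-11469417 with capitals for the differences within that pair. They are given because these genes, too, are close copies with differences between genotypes that follow.

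Ms4a6b: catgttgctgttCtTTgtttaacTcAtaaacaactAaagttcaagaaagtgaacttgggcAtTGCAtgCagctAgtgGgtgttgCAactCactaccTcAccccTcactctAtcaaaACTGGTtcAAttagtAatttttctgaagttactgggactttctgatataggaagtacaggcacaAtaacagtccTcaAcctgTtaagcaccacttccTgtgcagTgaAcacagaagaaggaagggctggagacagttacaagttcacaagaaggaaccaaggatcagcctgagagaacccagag

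Ms4a6c: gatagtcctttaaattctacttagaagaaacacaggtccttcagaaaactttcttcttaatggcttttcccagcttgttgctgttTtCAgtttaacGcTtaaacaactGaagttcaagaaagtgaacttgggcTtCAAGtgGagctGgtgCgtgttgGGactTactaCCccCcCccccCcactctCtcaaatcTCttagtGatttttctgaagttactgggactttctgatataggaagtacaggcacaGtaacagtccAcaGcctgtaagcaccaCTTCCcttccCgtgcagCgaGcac

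In this pair 188 of 232 aligned columns (81.0%) were identical, 30 were mismatched and 14 were gaps. The matching stretch lay from -248 to -24 in Ms4a6b and from -175 to 50 in Ms4a6c, so the annotated starts of the pair do not fall on the same aligned base.

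Ms4a6b was 10.74, 10.59, 10.56, 10.59 and 10.68 in wild type and 10.83, 10.70, 10.74 and 10.43 in null samples. It had the smallest difference of the members, 0.043 ± 0.086 (SE, 95% interval -0.15 to 0.23), and it was -0.0103 without null 1. The SD was 0.075 in wild type (n = 5) and 0.17 in null samples (n = 4), where null 4 was lowest and null 1 highest.

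Ms4a6c was 6.93, 6.93, 6.56, 6.56 and 6.97 in wild type and 6.95, 7.26, 7.27 and 6.77 in null samples. The difference was 0.27 ± 0.13 (SE, 95% interval -0.030 to 0.57). Null 2 and null 3 were above every wild-type sample, while null 1 and null 4 lay within the wild-type range, which itself fell into values near 6.56 (2 samples) and near 6.93 (3 samples).

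Ms4a6d, which is best known from macrophages, was 4.50, 3.93, 3.76, 4.02 and 3.72 in wild type and 4.05, 4.46, 3.95 and 3.92 in null samples. Only 3 of 9 values lay above the median of all probe sets, so no level above background is shown. The groups overlapped (difference 0.11 ± 0.17, SE), and the difference was -0.0155 without null 2.

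**Figure D1:**
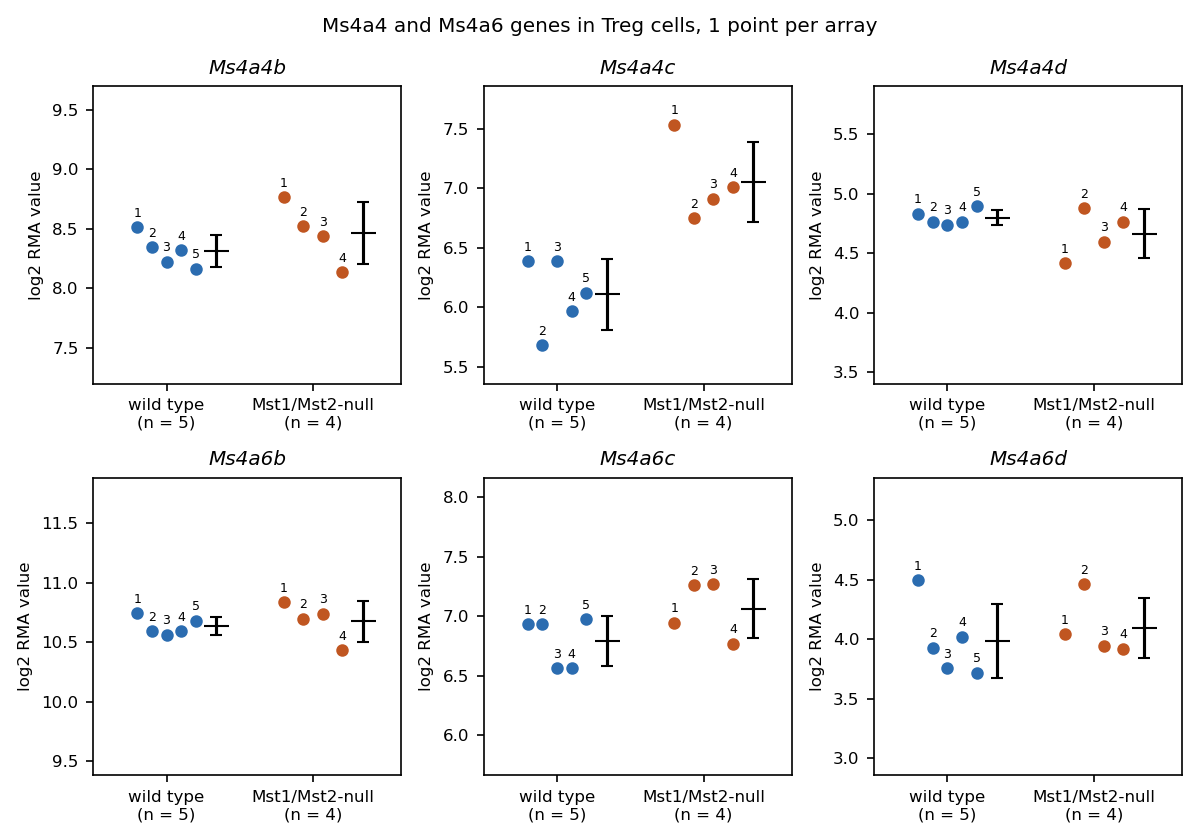
Log2 RMA value of each member in each array (numbered points), with the mean and SD of each group at the right of its points; wild type n = 5, null n = 4, and all panels span the same number of log2 units. Only Ms4a4c has null values (6.75 to 7.53) that lie wholly above the wild-type values (5.68 to 6.38).

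Ms4a4d shared no stretch of more than 46 aligned columns with another member. No window of a member held the core of the interferon-stimulated response element, searched as GAAA followed after any 2 bases by a further GAAA, which 3.44% of all 32851 promoter windows held on either strand. TTCNNNGAA, the core bound by STAT factors, was in 0 of the 5 windows and in 8.30% of all windows. AGGAAGT, an ETS factor core searched after the sequences had been seen, was in Ms4a6b (from position -86, and from -43 on the opposite strand) and Ms4a6c (from -17), and in 9.35% of all windows. All motifs were searched on both strands, and these 3 matches did not overlap one another. A match here describes letters and is not a site of binding.

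**Figure D2:**
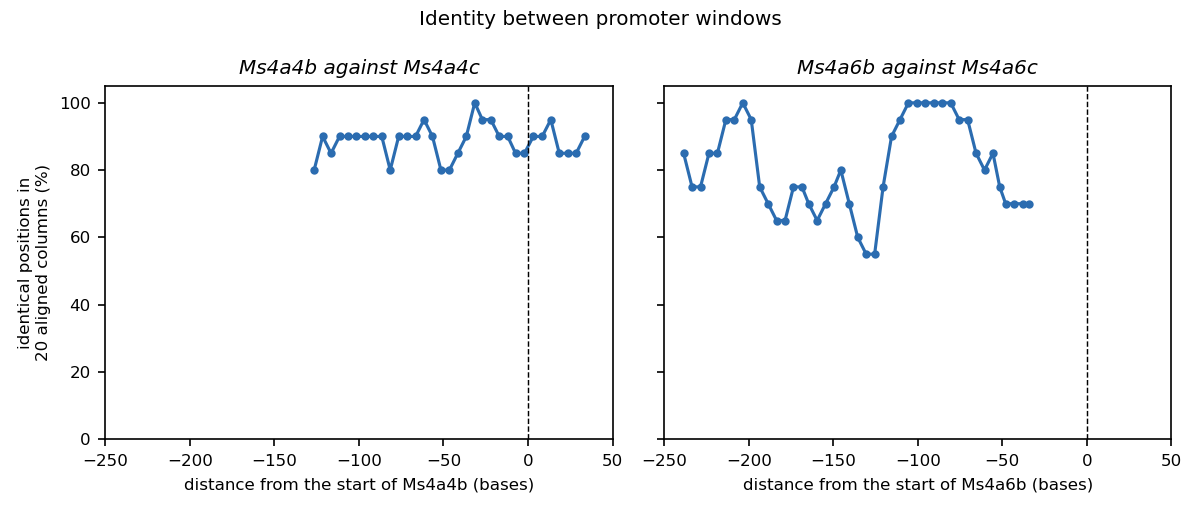
Share of identical positions in sliding windows of 20 aligned columns (percent) against the distance from the start of Ms4a4b (left, compared with Ms4a4c) and of Ms4a6b (right, compared with Ms4a6c), with the start as a dashed line. The first pair is at least 80.0% identical in every window, across its start, and the second is fully identical around -100.5 and at 55.0% around -125.5.

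Within a group, Ms4a4b and Ms4a6b deviated from their group means together. Over the 9 arrays the correlation of these deviations was 0.843, the highest of the 15 pairs of members. It rested partly on null 1, where both were high (deviations of 0.30 and 0.16), and null 4, where both were low (-0.33 and -0.245): without these arrays it was 0.424 over 7 arrays. The pair was then no longer the highest: without the same arrays Ms4a4b had 0.915 with Ms4a6d, and Ms4a6b had 0.71 with Ms4a6c. All genes of a sample share its array, so these values describe co-variation in these arrays.

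Gm8369, a predicted gene that lies between Ms4a6c and Ms4a6b and was singled out after its values were seen, had a similar correlation with Ms4a4b, 0.825 over 9 arrays and 0.826 over 7 without null 1 and null 4. Its promoter window was 84.3% identical to that of Ms4a4b over 216 aligned columns. With Ms4a4c the window was 87.0% identical over 177 columns, while the correlation of deviations was 0.468 over 9 arrays. Ms4a4b and Ms4a6b aligned over only 74 columns (63.5% identical). The means of Gm8369 were 9.05 ± 0.13 (SD, n = 5) in wild type against 9.23 ± 0.16 (SD, n = 4) in null samples, and Gm8369 did not pass (limma adjusted p = 0.406). Whether probes of these related genes bind more than 1 of their transcripts was not tested.

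The deviations of Ms4a4c correlated with those of Ms4a4b at 0.360, and at 0.005 without null 1 and null 4. Its lowest pair was with Ms4a4d (-0.536), and 10 of the 15 pairs of members were above 0, with a median of 0.315.

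**Figure D3:**
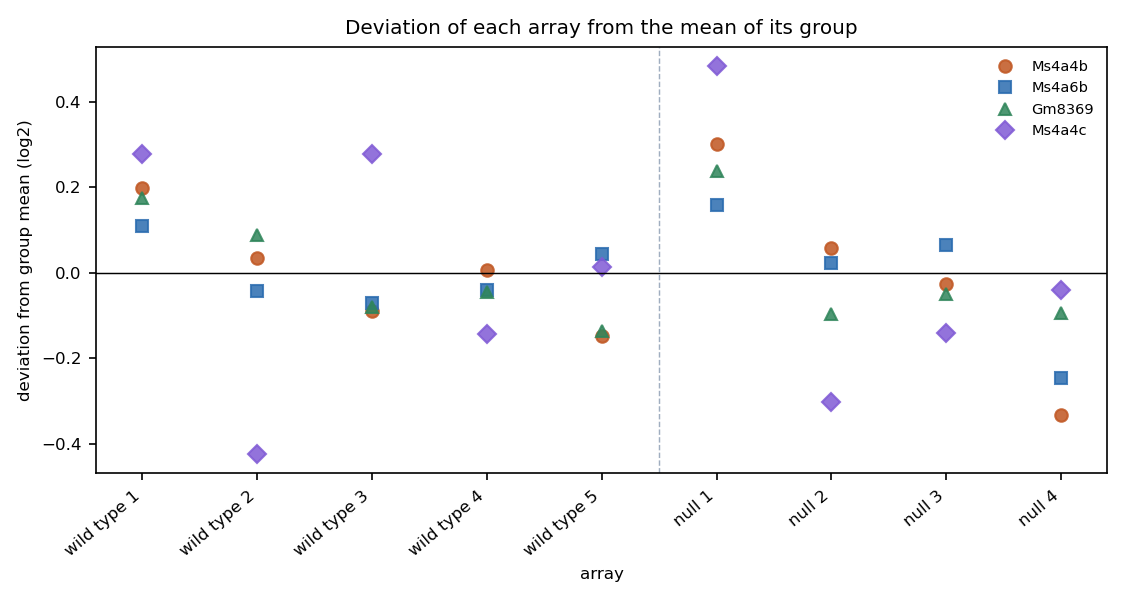
Deviation of each array from the mean of its group (log2 units) for Ms4a4b, Ms4a6b, Gm8369 and Ms4a4c, with wild-type arrays to the left and null arrays to the right of the dashed line. Ms4a4b and Ms4a6b are high in null 1 and low in null 4, while Ms4a4c deviates most in wild type 2 (-0.42) and null 1 (0.48).

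The genes whose values were most like those of Ms4a4c over the 9 arrays, by Pearson correlation, were Grap2 (0.991), Slc28a2b (0.966), Arid3b (0.966), Dgka (0.965) and Atxn2 (0.945). Grap2 encodes the adaptor GADS of T cell receptor signalling, Dgka a diacylglycerol kinase that dampens it, and Arid3b a DNA-binding protein. Their differences between genotypes were 0.62, 0.76, 0.44, 0.23 and 0.32 in that order. These are a description only, since genes chosen for likeness to Ms4a4c, whose groups do not overlap, tend to differ the same way. After removal of the group means the correlations with Ms4a4c were 0.963 for Grap2, 0.861 for Slc28a2b, 0.861 for Arid3b, 0.866 for Dgka and 0.774 for Atxn2. These come from the same 9 arrays by which the genes were chosen, so they are no separate support for co-variation.

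For Ms4a4b the most alike genes were AA386476 (0.931), Tmem39b (0.931), Srp54c (0.922), Prkd3 (0.909) and Mir1904 (0.909). Ms4a6b ranked 50 among all genes compared with Ms4a4b (0.834), and Ms4a4c ranked 1622 (0.511). The genes most like Ms4a6b were Fam83b (0.940), Lhfpl3 (0.923), Vmn1r70 (0.914), Mroh4 (0.909) and Trpc4ap (0.908). The first 4 of them had means below the median of all probe sets.

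The rest of the family was read with the same test. Of 17 other MS4A family genes, 16 had a value. By limma 0 passed, against 2.32% of all genes, and 0 had an unadjusted p under 0.05, against 14.9% of all genes. Their median difference was 0.054, from -0.20 for Tmem176b to 0.44 for Ms4a1, and 4 of the 16 had a mean above the median of all probe sets. Tmem176b, a relative of the family, had means of 4.75 ± 0.16 (SD, n = 5) in wild type against 4.55 ± 0.22 (SD, n = 4) in null samples (limma adjusted p = 0.494).

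Ms4a1 was 5.11, 4.54, 4.52, 3.96 and 3.81 in wild type and 4.93, 4.66, 4.39 and 5.33 in null samples. Its groups overlapped (difference 0.44 ± 0.27, SE, limma adjusted p = 0.4999), and it was highest in null 4 and wild type 1. The mean level of the 9 measured of 10 B cell markers, a list without Ms4a1, was highest in those same arrays (5.12 in null 4 and 4.91 in wild type 1), with ranges of 4.24 to 4.91 in wild type and 4.43 to 5.12 in null samples. Their part in the level of Ms4a1 was not tested.

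Ms4a7, a gene of macrophages, had means of 2.78 ± 0.023 (SD, n = 5) in wild type against 2.96 ± 0.29 (SD, n = 4) in null samples, below the median of all probe sets. Of the 17 alternatives that gave Ms4a7 a value, it passed only without null 4 (difference 0.32, limma adjusted p = 0.0492, against 0.537 with all arrays).

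Other cell types that a sort could hold were followed by their markers. Of 15 myeloid markers 13 were measured and 8 had a mean above the median of all probe sets. Their mean level was 4.42 to 4.617 in wild type and 4.619 to 4.98 in null samples, so that every null array lay above every wild-type array, and null 4 was highest. The difference was positive for 12 of the 13 markers. Their part in the members' levels was not tested. By limma 0 myeloid markers passed (3 at an unadjusted p under 0.05). None of the 6 mast cell markers had a mean above the median of all probe sets (0 of 6 passed by limma, 0 at an unadjusted p under 0.05). Both CD8 T cell markers lay above that median, with mean levels of 5.15 to 5.68 in wild type and 5.63 to 6.19 in null samples (0 passed by limma, 1 at an unadjusted p under 0.05). B cell markers likewise had 0 that passed by limma (1 at an unadjusted p under 0.05), with a positive difference for 9 of 9. The difference was also positive for 6 of 6 mast cell markers and 2 of 2 CD8 T cell markers, and for 11256 of all 22180 genes. Beside these marker counts, 2.32% of all genes passed by limma and 14.9% had an unadjusted p under 0.05. Fewer cells of a type and less RNA per cell cannot be told apart in such bulk samples.

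Along the chromosome, the genes beside the run of Ms4a genes were read with the same test. Of the 10 genes with a value on each side, 0 of 20 passed by limma (2 at an unadjusted p under 0.05), and 0 also passed with 5 or 20 genes on each side. The 2 with the smallest p were Slc15a3, a transporter of peptides and histidine (difference -0.50 ± 0.13, SE, limma adjusted p = 0.0865, groups without overlap), and Cblif, which encodes gastric intrinsic factor (0.22 ± 0.088, SE, limma adjusted p = 0.266). Cd5 and Cd6, T cell surface receptors among these neighbours, had differences of 0.079 and 0.023.

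Inside the run lie 4 further genes that are named after their values were seen. By limma 1 of the 4 passed, as lower in null samples, where 1.89% of all genes did. AW112010, a long noncoding RNA gene from which a short protein is also known to be made, fell in null samples. It was 9.86, 10.11, 9.86, 9.90 and 9.88 in wild type and 9.09, 9.49, 9.10 and 9.43 in null samples, without overlap. The difference was -0.65 ± 0.10 (SE), or 1.56-fold lower (limma adjusted p = 0.0106), and it passed in each of the 18 alternatives. BE692007 had a difference of -0.24 ± 0.11 (SE, limma adjusted p = 0.352) and 4930526L06Rik one of 0.033 ± 0.075 (SE, limma adjusted p = 0.889), which was -0.0014 without wild type 2 and -0.0227 without null 3.

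**Figure D4:**
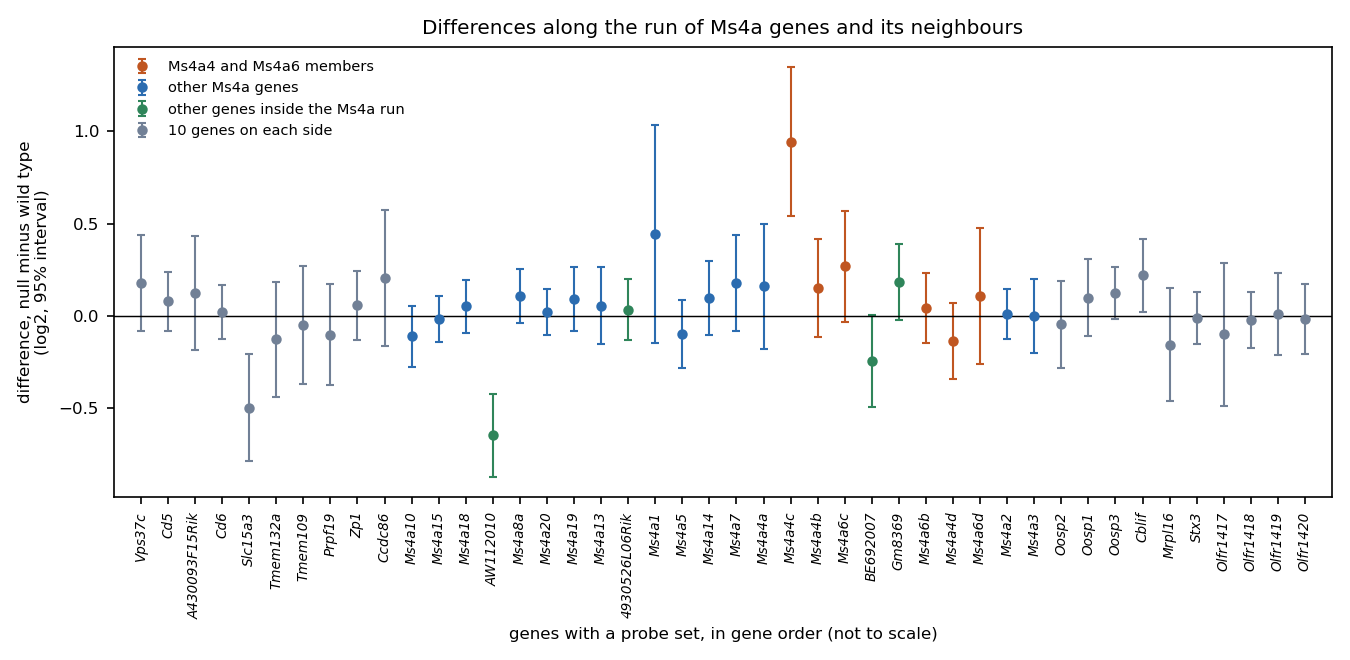
Difference between null and wild-type means (log2, with 95% intervals from limma) for each gene of the Ms4a run and the 10 genes with a value on each side, in gene order and not to scale. Within the run the intervals of Ms4a4c (0.94) and AW112010 (-0.65) lie away from 0, and those of the other members include 0. Beside the run those of Slc15a3 (-0.79 to -0.21) and Cblif (0.024 to 0.415) also lie away from 0, though neither gene passed. The intervals are for each gene by itself, without adjustment, and 14.9% of all genes had an unadjusted limma p under 0.05.

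GITR, the partner of Ms4a4b, and related TNF receptor costimulators had negative differences, and 1 of 4 passed, as lower in null samples, where 1.89% of all genes did (4 at an unadjusted p under 0.05, against 14.9% of all genes). Their median difference was -0.651. This list was chosen with earlier results of these data known, so its counts are a description and test nothing. Tnfrsf18, which encodes GITR, had means of 9.07 ± 0.15 (SD, n = 5) in wild type against 8.79 ± 0.21 (SD, n = 4) in null samples (difference -0.28 ± 0.11, SE, limma adjusted p = 0.260), with 3 of 4 null values below the lowest wild-type value. Tnfrsf1b, a receptor for tumour necrosis factor, fell, with a difference of -1.03 ± 0.087 (SE, limma adjusted p = 0.000444). Tnfrsf9 (-0.91, limma adjusted p = 0.0588) and Tnfrsf4 (-0.39, limma adjusted p = 0.114), costimulatory receptors that encode 4-1BB and OX40, did not pass.

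Among interferon response genes, read because Ms4a4c is induced by interferon, 27 of 32 were measured. Of these 0 passed by limma, against 2.32% of all genes. At an unadjusted p under 0.05 there were 9 (33.3%), against 14.9% of all genes, and the median difference was 0.061. This list, too, was chosen with earlier results known, and its counts test nothing. Usp18, a brake on interferon signalling, had a difference of 0.34 (limma adjusted p = 0.0704) and the RNA sensor gene Ifih1 one of -0.40 (limma adjusted p = 0.0974), both without overlap between groups.

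Resting T cell genes were a further list, chosen with earlier results of these data known, so its counts describe it and test nothing. Of 15 such genes 13 were measured, 3 rose and 0 fell, where 0.428% of all genes rose, with a median difference of 0.585. At an unadjusted p under 0.05 there were 11 (84.6%), against 14.9% of all genes. Those that rose were Pde3b, a phosphodiesterase gene (1.69, limma adjusted p = 0.000643), Dapl1 (1.68, limma adjusted p = 0.0207) and Igfbp4, an insulin-like growth factor binding protein gene (0.60, limma adjusted p = 0.0264). The count was 1 without wild type 2, 4 or 5 or without null 1, and 6 without null 4. Pde3b passed in each of the 17 alternatives that gave it a value. Dapl1 lost its call in 8 of 18 alternatives (limma adjusted p up to 0.0983), among them leaving out any 1 wild-type array or null 1. Igfbp4 lost it in 9 of 18 (limma adjusted p up to 0.101), among them leaving out wild type 2, 3, 4 or 5 or null 1, 2 or 4.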

How the data were processed

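Total RNA of 9 sorted Treg cell samples (5 wild type, 4 null) was amplified with a NuGEN kit (per the labels' protocols) and hybridised to 1 array per sample. The authors deposited log2 values, which the submitters' processing notes attribute to RMA in Affymetrix Expression Console 1.1. A genome build for the array was not given in these sources. Precision is limited by the number of arrays, and without scanner values low signal cannot be separated from background.

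The table held 41345 probe sets without missing values, of which 23521 had 1 symbol, 1814 several and 16010 none listed in the platform annotation. For 1082 genes with over 1 probe set the one with the highest mean was used. Entrez identifiers of 21994 of the 22180 genes matched RefSeq (GRCm38.p6), used for gene order. Groups were compared with limma 3.58.1 (lmFit and eBayes, R 4.3.3), two-sided, Benjamini-Hochberg adjusted over all genes, with a threshold of 0.05 and no filter. The fit was tested on simulated data with known differences. Promoter windows were aligned locally in Biopython 1.88 (match 1, mismatch -1, gap opening -3, extension -0.5).

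The members and lists were chosen with earlier results of these data known. Named genes were all members, up to 4 genes past the threshold by p in each list (otherwise 2, and all 4 costimulators), and the 5 genes most correlated with Ms4a4b, Ms4a4c and Ms4a6b without predicted models, receptor segments, Xist and Y-linked genes. Genes inside the run of Ms4a genes, Ms4a7, Cd5 and Cd6 were added to these. Alternatives were a replicate block, a filter on dim genes, other joining of probe sets, median centring, quantile normalisation, eBayes with trend and robust settings, array weights, and leaving out each array, or null 2 and 4 together (added later). Deviations of same-numbered samples correlated at -0.115 to 0.042. Other pairs of samples were not compared, so whether replicate numbers pair the samples was not shown.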

Additional observations from a re-analysis of the deposited data

Results flagged for a closer look

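A check of 25 of the genes named asked whether the highest or lowest sample of a group lay far from its nearest neighbour. Distance was taken relative to the range of the group, and chance alone meets the check in about 1 in 20 groups. It was met for 6 of 50 groups and for none of the 6 members. The cell type markers, Cd5, Cd6 and the genes listed as most like Ms4a4b, Ms4a4c and Ms4a6b were not checked. Gm8369 was 9.47 in null 1, where the next null value was 9.18, and Pde3b was 5.31 in null 1 with the next at 4.82. Tmem176b was 4.22 in null 1, below the next at 4.62. AW112010 was 10.11 in wild type 2, above the next at 9.90, Stk4 was 8.09 in wild type 3, above the next at 7.88, and Ms4a7 was 2.74 in wild type 1 against 2.79 in the others. Of these, 3 concern null 1, the array in which Ms4a4c, Ms4a4b and Ms4a6b were also highest.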

How the results depend on the processing

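For Ms4a4c, whose groups do not overlap, leaving out arrays could not change the sign of the difference. Differences of Ms4a4b, Ms4a4c, Ms4a4d and Ms4a6c kept their sign in all 18 alternatives. Others did not when an array was left out: Ms4a6b ran from -0.0103 (without null 1) to 0.1245, Ms4a6d from -0.0155 (without null 2) to 0.2354, and 4930526L06Rik from -0.0227 (without null 3) to 0.0713, with -0.0014 without wild type 2. By limma the number of members past the threshold was 0 (1 at an unadjusted p under 0.05) when every probe set was tested by itself and 0 to 1 when an array was left out. The count over all genes was 178 with the replicate block, whose numbers were not shown to pair the samples. The block changed no call among the members but ended that of Dapl1. The count was 297 when every probe set was tested by itself and 271 to 594 when an array was left out. Other MS4A family genes past the threshold numbered 0 to 1 when an array was left out. Lists were read under the same alternatives after the data were seen. The filter on dim genes gave 1 interferon response gene, 9 resting T cell genes and 2 TNF receptor costimulators, and quantile normalisation gave 1 interferon response gene and 9 resting genes. Trend and robust settings gave 6 resting genes and 2 costimulators, as did array weights (6 and 2). Without null 2 and null 4 together there were 5 and 2. Leaving out 1 array gave 1 to 6 resting genes and 1 to 2 costimulators. The causes were not tested. Dapl1 had a limma adjusted p of 0.0879 with the block, and Igfbp4 one of 0.0560 when every probe set was tested by itself. The filter on dim genes removed Ms4a6d, Cblif, Pde3b, 4930526L06Rik and Ms4a7, which have no value there. Signal near background limits what can be said of Ms4a6d, Ms4a7, most other MS4A family genes, and the wild-type levels of Pde3b and Dapl1.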
